A study of Mus musculus with 6 samples.

Results

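The T cell receptor complex, its coreceptors and the inhibitory receptors of T cells were followed through 10 genes in mouse liver tumors: *Cd3d*, *Cd3e*, *Cd3g*, *Cd247*, *Cd4*, *Cd8a*, *Cd8b1*, *Lck*, *Pdcd1* and *Ctla4*. They were chosen by name from the 34745 genes of the RNA-seq table, and each name was carried by 1 identifier. The table covered 3 tumors of Prmt3f/f mice, which the sample labels call WT, and 3 tumors of Prmt3LKO mice, which they call Prmt3-KO, with 1 library for each tumor. Mice of both groups received the liver carcinogen DEN (25 mg/kg) when 2 weeks old and the liver toxin CCl4 (10%, 0.5 ml/kg) from week 6, and the tumors were taken at 26 weeks. Both groups carry floxed *Prmt3* alleles, and the Prmt3LKO mice also carry Cre under the albumin promoter, which is active in hepatocytes. The deletion is thus directed at hepatocytes and not at T cells, and the libraries hold RNA of whole tumors rather than of sorted T cells. Nothing in the labels says whether tumors of a group came from separate mice, so p-values measure the spread between these libraries.

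The T cell receptor recognizes peptides on MHC molecules but has no signaling part of its own. Its chains are carried to the cell surface with the CD3 gamma, delta and epsilon chains and the zeta chain, whose cytoplasmic tails are phosphorylated by the kinase LCK. CD8 and CD4 are the coreceptors that bind MHC class I and class II and bring LCK to the complex, and PD-1 and CTLA-4 are receptors that dampen the signal. In liver tumors such transcripts come mainly from T cells and related lymphocytes within the tissue, but in mice some dendritic cells also express *Cd8a* or *Cd4*, and *Cd4* is found in other myeloid cells too.

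The libraries held between 18440244 and 27976598 counts in genes, so that 3 counts, taken as the floor, corresponded to between 0.105 and 0.171 CPM (the share of a library's counts, per 1000000 of them, with library sizes scaled by TMM). *Prmt3*, which checks the labels, was at 6.6 to 10.2 CPM in Prmt3f/f tumors and 2.03 to 3.82 CPM in Prmt3LKO tumors, a mean of 34.3% of the Prmt3f/f mean. Its log2 fold change was -1.55 ± 0.29 (SE), with an unadjusted p of 0.000827 and an adjusted p of 0.592 in edgeR's quasi-likelihood test. Even the deleted gene thus did not reach an adjusted p under 0.05. Log2 CPM correlated between tumors across genes at r of 0.946 to 0.971 within a genotype and 0.948 to 0.972 across genotypes, ranges that overlapped. Of 11 kidney genes, 3 passed the filter on low counts. All 3 were higher in Prmt3LKO tumors at an unadjusted p under 0.05 in edgeR, against 2.2% of all genes tested. The summed level of all 11 was 3.02 to 4.29 CPM in Prmt3f/f and 9.25 to 13 CPM in Prmt3LKO tumors, while 3 of the 11 had no more than 3 counts in any library. *Kap* was the main one, with means of 2.79 and 7.1 CPM. The part of the kidney genes in the results on the 10 genes was not tested.

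The 3 *Cd3* genes lie side by side on chromosome 9 of the GRCm38 assembly. *Cd3g* (ENSMUSG00000002033, chr9:44969572-44980431) and *Cd3d* (ENSMUSG00000032094, chr9:44981793-44987052) start close to each other on opposite strands, and *Cd3e* (ENSMUSG00000032093) follows at chr9:44998743-45009590. Their start regions are shown because these genes were read together as the measure of T cell receptor complexes, and that of *Cd8a* because it had the smallest p of the 10 genes. The sequences are those of RefSeq (GRCm38.p6), 5′ to 3′ on the gene's strand, from 250 bases before to 50 bases after the start, and span chr9:44980382-44980681 (minus strand) for *Cd3g*, chr9:44981536-44981835 (plus) for *Cd3d*, chr9:45009562-45009861 (minus) for *Cd3e* and chr6:71373177-71373476 (plus) for *Cd8a*. Capitals mark matches to the E-box letters CAGNTG on either strand.
Cd3g: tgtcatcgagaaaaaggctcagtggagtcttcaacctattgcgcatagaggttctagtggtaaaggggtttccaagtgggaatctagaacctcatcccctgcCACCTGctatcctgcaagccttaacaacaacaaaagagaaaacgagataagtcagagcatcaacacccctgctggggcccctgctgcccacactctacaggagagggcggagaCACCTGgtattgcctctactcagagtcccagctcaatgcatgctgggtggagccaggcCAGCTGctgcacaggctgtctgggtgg
Cd3d: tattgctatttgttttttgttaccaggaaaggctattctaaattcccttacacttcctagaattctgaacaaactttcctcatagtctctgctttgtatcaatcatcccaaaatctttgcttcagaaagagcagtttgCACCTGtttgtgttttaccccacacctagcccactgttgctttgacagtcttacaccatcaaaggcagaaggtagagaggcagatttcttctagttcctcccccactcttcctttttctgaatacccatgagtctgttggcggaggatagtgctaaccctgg
Cd3e: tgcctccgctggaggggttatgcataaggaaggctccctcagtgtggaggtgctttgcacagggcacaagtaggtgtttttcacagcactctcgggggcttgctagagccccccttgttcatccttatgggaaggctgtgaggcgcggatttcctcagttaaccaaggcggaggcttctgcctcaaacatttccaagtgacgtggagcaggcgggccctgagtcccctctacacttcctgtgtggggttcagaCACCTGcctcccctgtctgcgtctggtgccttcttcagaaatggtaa
Cd8a: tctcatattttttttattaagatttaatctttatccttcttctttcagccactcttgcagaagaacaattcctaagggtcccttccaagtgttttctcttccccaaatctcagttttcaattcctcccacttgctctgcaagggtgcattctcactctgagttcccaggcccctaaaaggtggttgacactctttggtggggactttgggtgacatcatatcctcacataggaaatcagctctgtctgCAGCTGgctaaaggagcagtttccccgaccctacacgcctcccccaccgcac
Windows were held for 8 of the 10 genes, 9 windows in all because *Lck* has 2 of them, and *Cd4* and *Cd8b1* had no entry. The E-box letters stood in 8 of these 9 windows and in 51.4% of the 32851 mouse windows of the same length. *Cd3g* held 3 matches, at -148, -35 and 23 bases from its start, and the *Cd3e* match lay at 3 and that of *Cd8a* at -2. The letters GGAAGT, an ETS core searched on both strands, stood in 5 of the 9 windows and in 23.8% of all windows. They were found in *Cd3d* at -199, in *Cd3e* at -18, in *Cd247* at -58 and 21, and in the *Lck* windows at -9 and -113. The RUNX letters TGTGGT (16.8% of all windows) were present in 1 *Lck* window, the GATA letters AGATAA (11.2%) in *Cd3g*, and TATAAA (13.6%) in *Ctla4*. These matches are descriptions of letters and not of bound sites.

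All 10 genes had lower means in Prmt3LKO tumors, by a log2 fold change between -1.66 and -1.06 and a median of -1.19, where 49.9% of the 13892 genes tested had a value below 0 and their median was 0.00. A log2 fold change of -1 or lower was found in 3.07% of all genes tested and in 10 of the 10. None of the 10 was called by edgeR's quasi-likelihood test at an adjusted p under 0.05 and a fold of 2, and 0% of all genes were. At an unadjusted p under 0.05, 6 of the 10 were lower, against 4.37% of all genes (*Cd3g*, *Cd247*, *Cd8a*, *Cd8b1*, *Lck* and *Pdcd1*). The same count was 7 with DESeq2 (4.53% of all genes), 8 with edgeR's exact test (4.39%) and 7 with limma-voom (3.91%). In 7 of the 10 every Prmt3LKO tumor was below every Prmt3f/f tumor in CPM with TMM scaling, against 6.6%. For *Cd4*, 1 of these 7, the groups overlapped in FPKM. In bulk RNA, fewer T cells and less of a transcript in each T cell cannot be told apart. By immunohistochemistry, the authors' paper reports a marked increase of CD8+ T cells in Prmt3LKO tumors. By immunofluorescence, it reports a smaller proportion of CD8+ T cells with PD-1. The lower *Cd8a* and *Cd8b1* RNA thus ran opposite to the reported CD8 staining. The reason was not tested. With 3 against 3 tumors the exact two-sided permutation test over a single gene cannot go below 0.1. The 10 genes share their libraries and varied together across tumors, so counts out of 10 are not counts of separate observations.

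**Figure D1:**
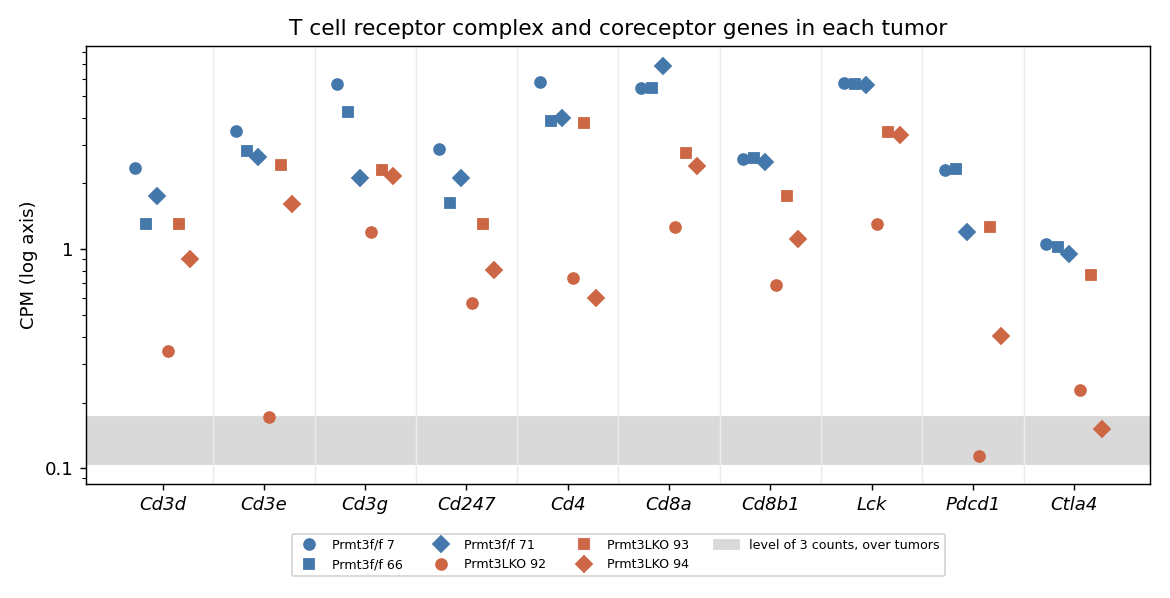
CPM of the 10 genes in each tumor, on a log axis, with Prmt3f/f in blue and Prmt3LKO in red, a symbol for each tumor, and a gray band for the level of 3 counts over the 6 libraries. Prmt3LKO 93 is the highest of the Prmt3LKO tumors for all 10 genes, and Prmt3LKO 92 the lowest of all 6 tumors for 8 of them.

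The Prmt3LKO tumors differed widely among themselves. The 10 genes together had 810, 664 and 847 counts in Prmt3f/f tumors 7, 66 and 71 and 116, 468 and 268 counts in Prmt3LKO tumors 92, 93 and 94. As CPM without TMM scaling these sums were 38.5, 30.2 and 30.3 in Prmt3f/f and 6.29, 22 and 13.3 in Prmt3LKO tumors, so the groups did not overlap. Prmt3LKO 93 was the highest of the Prmt3LKO tumors for 10 of the 10 genes, where it was highest for 36.9% of all genes tested. Prmt3LKO 92 was the lowest of the 6 tumors for 8 genes, against 14.8% of all genes, and Prmt3LKO 94 was lowest for *Cd4* and *Ctla4*. At an unadjusted p under 0.05 in edgeR, 2 of the 10 genes were lower without Prmt3LKO 92 (2.93% of all genes), and the median log2 fold change was then -0.94. The count was 2 without Prmt3LKO 94 (4.24% of all genes), and 9 without Prmt3LKO 93 (3.99%), where the median was -1.67. It was 3 without Prmt3f/f 7 (4.91%), 3 without Prmt3f/f 66 (3.01%) and 6 without Prmt3f/f 71 (5.12%).

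**Figure D2:**
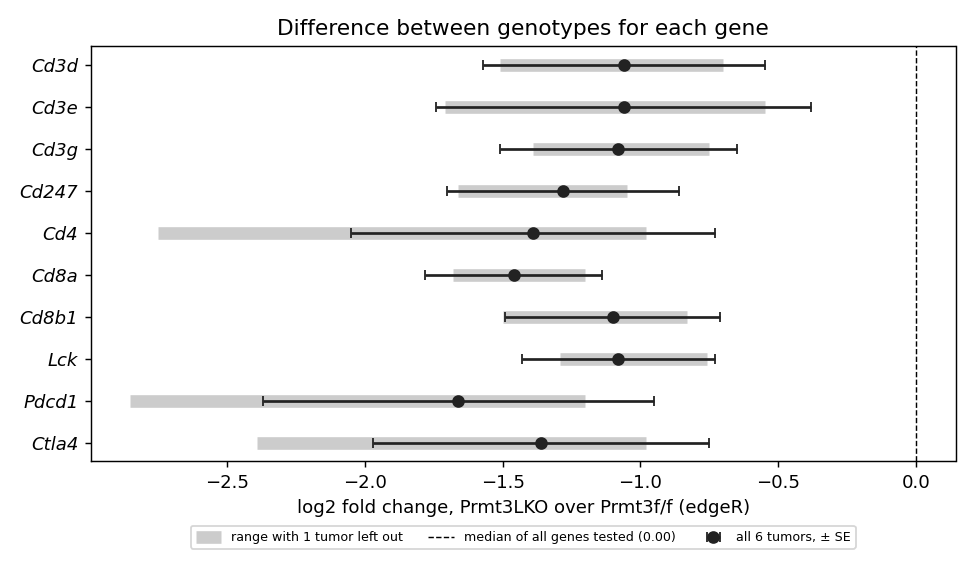
Log2 fold change of each gene in Prmt3LKO against Prmt3f/f tumors with its standard error as bars, from edgeR, and in gray the range when 1 tumor is left out, with the median of all genes tested as a dashed line. All 10 values lie at or below -1.06, and no adjusted p was under 0.05.

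The CD3 chains build the signaling core of the receptor. *Cd3d* (delta) was at 2.35, 1.31 and 1.76 CPM in Prmt3f/f 7, 66 and 71 and at 0.343, 1.31 and 0.905 CPM in Prmt3LKO 92, 93 and 94. Its groups met at Prmt3f/f 66 and Prmt3LKO 93, and the log2 fold change of -1.06 ± 0.51 (SE) had an adjusted p of 0.774 with edgeR. *Cd3e* (epsilon) was at 3.46, 2.8 and 2.64 CPM in Prmt3f/f and at 0.171, 2.44 and 1.61 CPM in Prmt3LKO tumors. Prmt3LKO 92 had only 3 reads of *Cd3e*, the floor, while Prmt3LKO 93 was just under the Prmt3f/f tumors. The difference was -1.06 ± 0.68, with an adjusted p of 0.877 in edgeR and an exact permutation p of 0.1. *Cd3g* (gamma) was at 5.72, 4.25 and 2.11 CPM in Prmt3f/f and at 1.2, 2.3 and 2.16 CPM in Prmt3LKO tumors, so that Prmt3f/f 71 was below Prmt3LKO 93 and 94. Its log2 fold change was -1.08 ± 0.43, with an adjusted p of 0.74 in edgeR.

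*Cd247* (ENSMUSG00000005763, chr1:165788681-165877277), which encodes the zeta chain, was at 2.86, 1.63 and 2.11 CPM in Prmt3f/f and at 0.572, 1.31 and 0.804 CPM in Prmt3LKO tumors. The groups did not overlap, and the log2 fold change was -1.28 ± 0.42 with an adjusted p of 0.648 in edgeR (unadjusted 0.0164). Its locus overlaps 6 other annotated genes, among them *Pou2f1* on the other strand, and whether the counting used strand is not given in the sources used here. Reads of the 2 genes could therefore be mixed. *Cd3e* overlaps 2 annotated predicted genes, 1 of them antisense, which the table did not list.

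The coreceptor *Cd8a* (ENSMUSG00000053977, chr6:71373427-71379173), the CD8 alpha chain, had the smallest p of the 10. It was at 5.45, 5.46 and 6.89 CPM in Prmt3f/f and at 1.26, 2.75 and 2.41 CPM in Prmt3LKO tumors, means of 5.93 ± 0.831 and 2.14 ± 0.783 (SD, n = 3). The Prmt3LKO mean was 36.1% of the other, and the highest Prmt3LKO tumor lay well below the lowest Prmt3f/f tumor. The log2 fold change was -1.46 ± 0.32, with an unadjusted p of 0.00202 and an adjusted p of 0.592 in edgeR's quasi-likelihood test. DESeq2 gave an adjusted p of 0.0204 and edgeR's exact test 0.03, and both called the gene, where they called 0.31% and 0.252% of all genes lower. Leaving out any 1 tumor kept the unadjusted p under 0.05, with log2 fold changes of -1.68 to -1.20.

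*Cd8b1* (ENSMUSG00000053044, chr6:71322788-71337494), the CD8 beta chain, which forms the CD8 heterodimer of conventional CD8+ T cells, was at 2.59, 2.61 and 2.5 CPM in Prmt3f/f tumors. It was at 0.686, 1.76 and 1.11 CPM in Prmt3LKO tumors, all below the Prmt3f/f tumors, which were closely alike at 2.56 ± 0.0607. Its log2 fold change was -1.10 ± 0.39 with an adjusted p of 0.682 in edgeR. The ratio of *Cd8a* to *Cd8b1* per length (FPKM) was 0.406, 0.403 and 0.532 in Prmt3f/f and 0.353, 0.301 and 0.42 in Prmt3LKO tumors, which overlapped.

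*Cd4* (ENSMUSG00000023274, chr6:124864692-124888221) was at 5.82, 3.87 and 3.97 CPM in Prmt3f/f and at 0.743, 3.79 and 0.603 CPM in Prmt3LKO tumors. Prmt3LKO 93 with 84 counts was almost level with Prmt3f/f 66 with 83, whereas Prmt3LKO 92 and 94 had 13 and 12 counts. The groups just failed to overlap in CPM with TMM scaling. In FPKM they overlapped, with Prmt3LKO 93 at 0.795 and Prmt3f/f 66 at 0.762. The log2 fold change was -1.39 ± 0.66 with an adjusted p of 0.774 in edgeR. This fold change was -2.75 without Prmt3LKO 93 and -0.98 without Prmt3LKO 94.

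The share of CD8 among the coreceptors was therefore read within each tumor, where library scaling cannot move it. As a share of the summed FPKM of *Cd8a* and *Cd4*, *Cd8a* made up 37.6%, 47.6% and 52.8% in Prmt3f/f 7, 66 and 71 and 52.2%, 31.9% and 72.1% in Prmt3LKO 92, 93 and 94. The exact (Clopper-Pearson) 95% intervals, which cover counting error only, were 31.8% to 43.9% for Prmt3f/f 7, 24.9% to 39.7% for Prmt3LKO 93 and 57.4% to 84.2% for Prmt3LKO 94. The Prmt3LKO tumors thus held the lowest and the highest share of all 6 as point values. The interval of Prmt3LKO 93 overlapped that of Prmt3f/f 7. That of Prmt3LKO 94 overlapped that of Prmt3f/f 71 (46.9% to 58.7%). The level of the share depends on the gene lengths behind FPKM. With merged exon lengths of the GENCODE annotation the share was 50.9%, 61% and 65.8% in Prmt3f/f and 65.2%, 44.6% and 81.6% in Prmt3LKO tumors, in the same order. The log2 ratio of *Cd8a* to *Cd4* differed by 0.37 ± 0.76 (SE) between genotypes, with an exact permutation p of 0.8 and an adjusted p of 1 over 8 ratios, and its direction turned to -0.25 without Prmt3LKO 94. With *Cd8b1* in place of *Cd8a* the shares were 59.8%, 69.3% and 67.8% in Prmt3f/f and 75.5%, 60.8% and 86% in Prmt3LKO tumors, in which Prmt3LKO 93 was again the lowest of its group and Prmt3LKO 94 the highest.

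**Figure D3:**
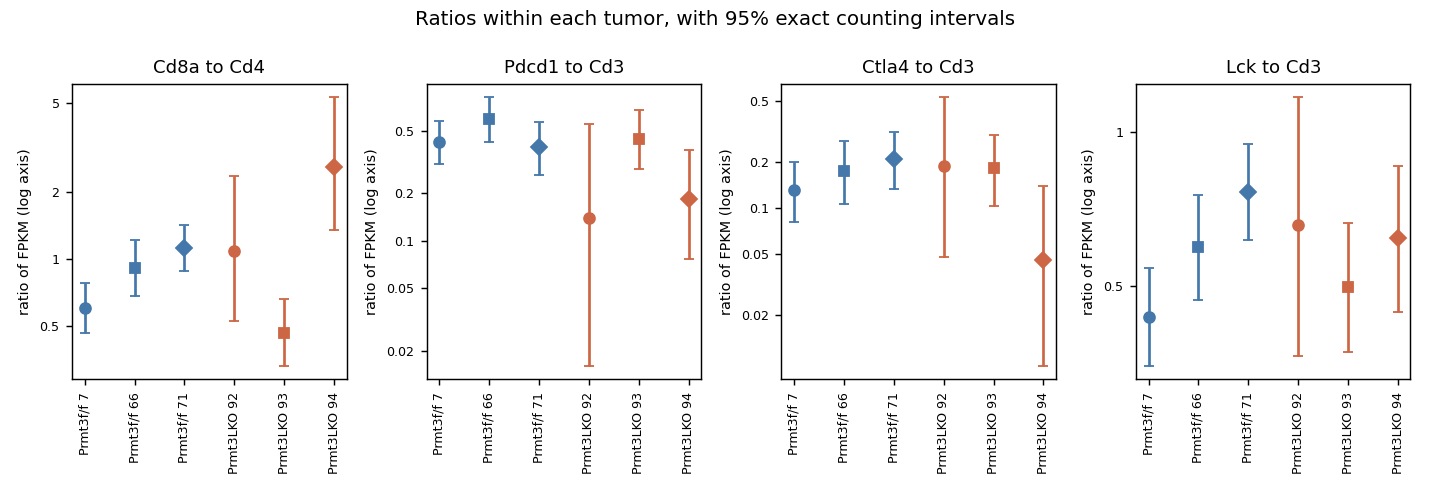
FPKM ratios within each tumor on log axes: Cd8a to Cd4, and Pdcd1, Ctla4 and Lck to the mean of the 3 Cd3 genes, with 95% exact counting intervals as bars. Prmt3LKO 94 has the highest Cd8a to Cd4 ratio (2.58) and the lowest Ctla4 ratio (0.0457), and the genotypes overlap in every panel.

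*Lck* (ENSMUSG00000000409, chr4:129548344-129573641), the kinase that starts signaling from the receptor, was at 5.77, 5.69 and 5.66 CPM in Prmt3f/f and at 1.31, 3.43 and 3.32 CPM in Prmt3LKO tumors. The Prmt3f/f tumors were closely alike, with an SD of 0.0565 CPM, and all 3 Prmt3LKO tumors were below them. Its log2 fold change was -1.08 ± 0.35 with an adjusted p of 0.648 in edgeR, and it stayed at an unadjusted p under 0.05 when any 1 tumor was left out. Per *Cd3*, *Lck* was nearly level, with FPKM ratios to the mean of the *Cd3* genes of 0.434, 0.594 and 0.761 in Prmt3f/f and 0.657, 0.496 and 0.619 in Prmt3LKO tumors. With merged exon lengths the ratios lay between 1.52 and 2.57 in Prmt3f/f and between 1.74 and 2.25 in Prmt3LKO tumors, so their side of 1 depends on the length used. The difference of the log2 ratio was 0.01 ± 0.26 (exact permutation p of 1).

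*Pdcd1* (ENSMUSG00000026285, chr1:94038305-94052553), which encodes PD-1, was at 2.31, 2.33 and 1.2 CPM in Prmt3f/f and at 0.114, 1.26 and 0.402 CPM in Prmt3LKO tumors. Only 2 reads were counted in Prmt3LKO 92, under the floor, and 8 in Prmt3LKO 94, and Prmt3LKO 93 was above Prmt3f/f 71. The log2 fold change of -1.66 ± 0.71, with an adjusted p of 0.756 in edgeR, was the lowest of the 10 but ranged from -2.85 to -1.20 when single tumors were left out. *Ctla4* (ENSMUSG00000026011, chr1:60887000-60915832) was at 1.06, 1.03 and 0.949 CPM in Prmt3f/f and at 0.229, 0.767 and 0.151 CPM in Prmt3LKO tumors, the latter resting on 4, 17 and 3 reads. The groups did not overlap, and the log2 fold change was -1.36 ± 0.61 with an adjusted p of 0.766 in edgeR.

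Relative to the *Cd3* genes, neither checkpoint receptor separated the genotypes. The FPKM ratio of *Pdcd1* to the mean of *Cd3d*, *Cd3e* and *Cd3g* was 0.423, 0.593 and 0.392 in Prmt3f/f and 0.139, 0.445 and 0.183 in Prmt3LKO tumors. With merged exon lengths these ratios were 0.921, 1.34 and 0.822 and 0.297, 0.971 and 0.402. On FPKM the interval of Prmt3LKO 92 ran from 0.0161 to 0.548, since it rests on 2 reads. The log2 ratio differed by -1.04 ± 0.54 (exact permutation p of 0.3). For *Ctla4* the ratio was 0.13, 0.174 and 0.208 in Prmt3f/f and 0.186, 0.181 and 0.0457 in Prmt3LKO tumors, so that only Prmt3LKO 94 was apart, with an interval of 0.00926 to 0.138 from its 3 reads. The difference between genotypes in the log2 ratio of *Ctla4* was -0.54 ± 0.70 (exact permutation p of 0.7). The 5 other ratios to *Cd3* differed by between -0.68 for *Cd4* and 0.01 for *Lck*, and the genotypes overlapped in all 8 ratios, each with an adjusted p of 1. Errors of this size do not show that the ratios were alike.

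The genes were also set against *Ptprc*, which encodes CD45 of leukocytes, and for the *Cd3* genes this was added after the data were seen. *Ptprc* itself was at a mean of 40.1 CPM in Prmt3f/f and 22.8 CPM in Prmt3LKO tumors (log2 fold change -0.81 ± 0.15, unadjusted p of 0.000726 in edgeR). Divided by *Ptprc*, the mean of the *Cd3* genes was 1.86, 1.39 and 1.07 in Prmt3f/f and 0.601, 1.67 and 1.2 in Prmt3LKO tumors. The log2 difference was -0.40 ± 0.49 and the groups overlapped, while the same mean in FPKM, with no denominator, differed by -1.25 ± 0.63. The shift between these values is by construction the log2 FPKM difference of *Ptprc* (-0.85). The part of leukocyte content in the differences was not tested. *Cd8a* alone of the 10 stayed apart, at 0.465, 0.483 and 0.609 in Prmt3f/f against 0.231, 0.407 and 0.329 in Prmt3LKO tumors, a log2 difference of -0.72 ± 0.27 (exact permutation p of 0.1, the smallest possible).

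**Figure D4:**
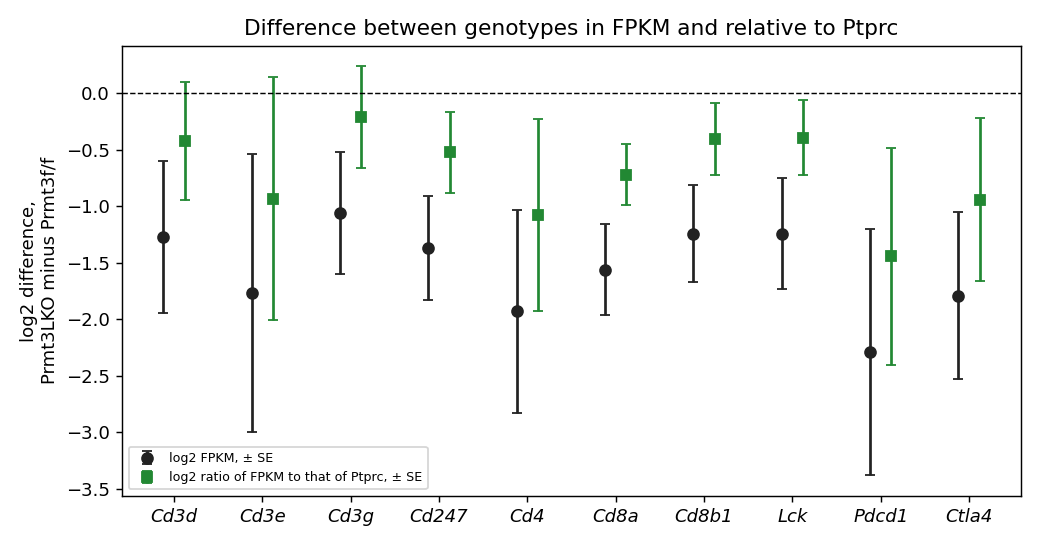
Difference between genotypes (Prmt3LKO minus Prmt3f/f) for each of the 10 genes, as log2 FPKM and as the log2 ratio of FPKM to that of Ptprc, with standard errors. By construction, dividing by Ptprc shifts every value by the same amount, the difference of Ptprc itself (-0.85). Cd8a (-0.72) is the one gene whose groups do not overlap on the ratio.

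Per length, the levels followed the same order in both genotypes at the top. In Prmt3f/f tumors the FPKM means were 3.04 ± 1.41 for *Cd3g*, 2.08 ± 0.345 for *Cd3e*, 1.74 ± 0.0459 for *Cd8b1*, 1.38 ± 0.435 for *Cd3d* and 1.22 ± 0.0409 for *Lck* (SD, n = 3). *Pdcd1*, *Cd4* and *Cd8a* followed at 1.01, 0.928 and 0.777, and *Ctla4* and *Cd247* were lowest at 0.353 and 0.27. Of the neighbors in this order, *Cd3e* and *Cd8b1*, and *Cd8a* and *Ctla4*, did not overlap between tumors, and all other neighbors did. In Prmt3LKO tumors every pair of neighbors overlapped, from 1.41 for *Cd3g* to 0.109 for *Cd247*. This order depends on the length used. The FPKM values imply a length of 7695 bases for *Cd8a*, longer than its merged exons of 3637 bases. For *Cd3d*, *Cd3e* and *Cd3g* the implied lengths of 1323, 1436 and 1335 bases were instead shorter than the merged exons of 1815, 4080 and 3269 bases. With merged exons the highest means in Prmt3f/f tumors were those of *Lck* at 1.96, *Cd8b1* at 1.74 and *Cd8a* at 1.64, while *Cd3g* moved from rank 1 to 4 and *Cd3e* from rank 2 to 8. A length is the same in every tumor and so cancels from the differences of the 8 log2 ratios between genotypes, apart from the weights within the *Cd3* mean. These differences therefore moved by no more than about 0.01 with merged exon lengths, which is no separate check of them.

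Among the T cell receptor chains, 5 of 7 genes passed the filter and 4 were lower in mean. *Trac*, the alpha chain constant region, was at 4.15 CPM in Prmt3f/f and 1.99 in Prmt3LKO tumors (log2 fold change -1.04 ± 0.38, unadjusted p of 0.0254 in edgeR), and *Trbc2*, a beta chain constant region, at 3.96 and 1.38 CPM (-1.50 ± 0.43, p of 0.00879). *Trbc1* differed by -0.37 (p of 0.539), *Tcrg-C2* by -1.29 (p of 0.2) and *Trdc* of the delta chain by 0.18 (p of 0.804). *Tcrg-C1* and *Tcrg-C4* were not tested. The list median was -1.04.

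Of 26 genes that carry or restrain the signal below the receptor, 24 were tested, 23 had a lower mean, 8 were lower at an unadjusted p under 0.05, and the median was -0.59. Over all genes tested, 49.9% had a lower mean and 4.37% were lower at that p. These 8 were *Ptprc*, *Lcp2* (-0.80), *Ubash3a* (-1.78), *Lat* (-1.18), *Vav1* (-0.62), *Cd5* (-1.33), *Ptpn22* (-0.83) and *Cd2* (-1.23). *Lat* and *Lcp2* are adaptors that link the receptor to downstream signaling, and *Vav1* is an exchange factor. *Zap70*, the kinase that binds the phosphorylated CD3 and zeta tails, named here for that role after its values were seen, was at 12.8 and 11.2 CPM (log2 fold change -0.19, unadjusted p of 0.559 in edgeR). It was at 14.5, 6.54 and 12.5 CPM in Prmt3LKO 92, 93 and 94. Its lowest tumor was thus Prmt3LKO 93, the highest of its group for the 10 genes, so its reads did not follow those of the receptor genes. The summed level of this list was 253 to 264.1 CPM in Prmt3f/f and 202.9 to 208.7 CPM in Prmt3LKO tumors, with no overlap and with the 3 Prmt3LKO tumors close together, unlike the 10 genes, whose sums spread from 6.63 to 21.1 CPM. Many of these genes are also used by other leukocytes.

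Against the same shares of all genes (49.9% and 4.37%), other inhibitory receptors were lower in mean for 9 of 9 genes, with 3 at an unadjusted p under 0.05: *Entpd1* (-0.62), *Btla* (-1.44) and *Tigit* (-1.11). Of the checkpoint ligands, *Cd80* (-2.31, p of 0.0183), *Cd86* (-0.52, p of 0.0452) and *Cd274*, which encodes PD-L1 (-0.62, p of 0.0457), were lower at an unadjusted p in edgeR, 3 of the 3 tested. Of the T cell subset genes 13 of 14 had a lower mean, with *Tbx21* (-1.44), *Itgae* (-1.69) and *Il7r* (-1.08) at an unadjusted p under 0.05, and of the cytotoxic genes 5 of 6, with *Nkg7* (-0.95). No gene of these lists or among the 10 was called by edgeR's quasi-likelihood test.

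**Figure D5:**
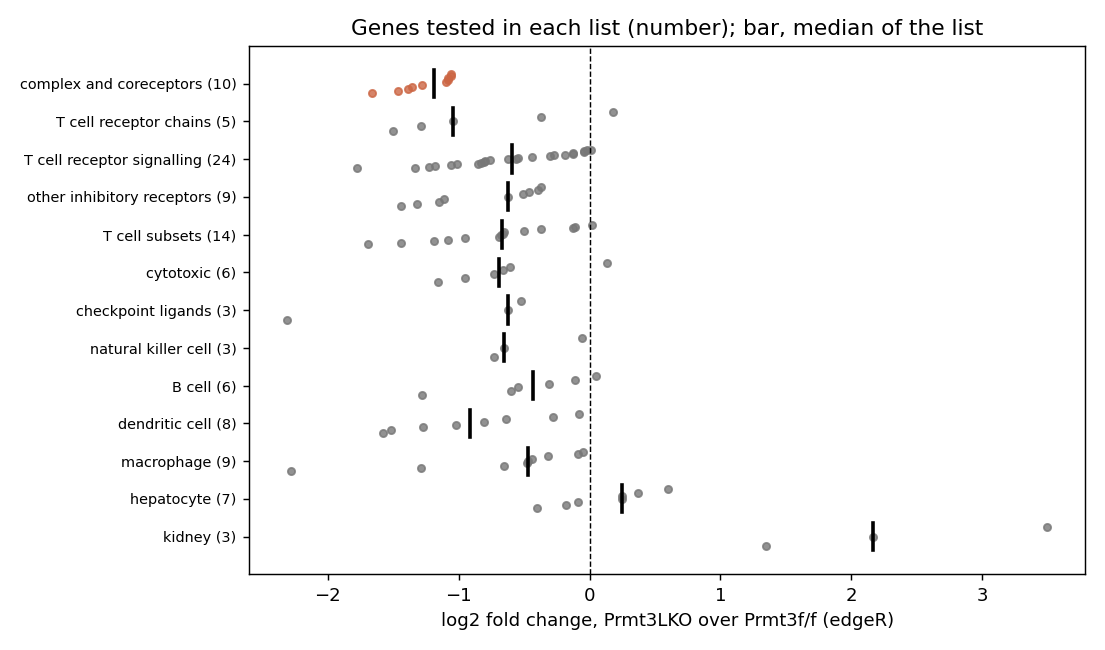
Log2 fold change (edgeR) in Prmt3LKO against Prmt3f/f tumors of each tested gene of 13 lists, as points, with the list median as a black bar and the number tested in brackets. The 10 genes have the lowest list median (-1.19), and the hepatocyte list has a median of 0.25.

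Most tested markers of other leukocytes were also lower in mean. Over all genes tested, 49.9% had a lower mean and 4.37% were lower at an unadjusted p under 0.05 in edgeR. The summed level of 8 dendritic cell genes was 28.6 to 36.2 CPM in Prmt3f/f and 13.3 to 22.6 CPM in Prmt3LKO tumors, with 8 of 8 lower and *Clec9a* (-1.58), *Itgax* (-1.02), *Xcr1* (-1.52) and *Siglech* (-1.27) at an unadjusted p under 0.05. For 9 macrophage genes the sums were 551 to 630.5 and 371.4 to 535.4 CPM, with 9 of 9 lower in mean and 5 at an unadjusted p under 0.05, which were *Marco* (-2.28), *Timd4* (-1.29), *Csf1r* (-0.47), *Cd68* (-0.65) and *Adgre1* (-0.48). Values near 0 count as lower here, as for *Cd209a* (-0.08) of the dendritic cell list and *Clec4f* (-0.05) and *Cd5l* (-0.09) of the macrophage list. In Prmt3LKO 92, 93 and 94 the macrophage sums were 510, 371.4 and 535.4 CPM. They were lowest in Prmt3LKO 93, which was the highest of its group for the 10 genes. The B cell sums of 8.16 to 8.91 and 5.32 to 8.57 CPM and the natural killer cell sums of 9.92 to 13.3 and 6.52 to 10.8 CPM overlapped, with 5 of 6 and 3 of 3 genes tested lower in mean. Of the natural killer cell genes, *Il2rb* was lower in every Prmt3LKO tumor (-0.73, unadjusted p of 0.0144 in edgeR), and *Klre1*, not tested for its low counts, had 6, 0 and 9 reads in Prmt3f/f and 6, 12 and 24 in Prmt3LKO tumors. Hepatocyte genes were lower in mean in 3 and higher in 4 of 7, with a median of 0.25, and *Apoc3* was higher in every Prmt3LKO tumor (0.60, unadjusted p of 0.0118 in edgeR). The part of these markers in the differences of the 10 genes was not tested.

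Over the 6 tumors, the pattern of the *Cd3* genes, as the mean log2 CPM of *Cd3d*, *Cd3e* and *Cd3g*, was closely like that of *Mmp9* (Pearson r of 0.993), *Dcun1d1* (0.992), *Traf1* (0.990), *Adam19* (0.987), *Sept1* (0.985, matched by its identifier), *Ccl22* (0.982) and *Tagap* (0.982) among 12136 genes, where 0.486% of genes reached 0.95. *Ccl22*, a chemokine, was at 2.24 and 0.609 CPM, and *Dcun1d1* at 28.2 and 24.8 CPM. Of the 10 genes themselves, *Lck* (0.958) and *Pdcd1* (0.951) were the most like the *Cd3* genes, followed by *Cd8b1* (0.931), *Cd247* (0.905) and *Cd8a* (0.877), and *Cd4* (0.805) and *Ctla4* (0.758) were the least. These correlations describe 6 points that share their libraries.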

How the data were processed

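RNA-seq reads were aligned to GRCm38 by the authors, and the submitters' processing notes name HISAT2 2.0.4 and StringTie 1.3.0 among the tools. Their 1 deposited table gives, for every gene and tumor, a whole-number read count that was not normalized and an FPKM. The counting tool, annotation release and strand setting are not given in the sources used here. The deposited FPKM values divide the count by a gene length and the total count. That length was the same in every tumor, but in 65.8% of 8963 genes it equaled the sum over distinct exon records, which counts overlapping bases again. For the 3 *Cd3* genes it was shorter than both that sum and the merged exons.

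Genotypes came from the sample labels. Counts were filtered with filterByExpr (minimum count 10, minimum total count 15), scaled by TMM and fitted in edgeR 4.0.16 (R 4.3.3) for its quasi-likelihood test. Adjusted p-values (Benjamini-Hochberg) cover all 13892 genes tested, and calls needed an adjusted p under 0.05 and a fold of at least 2 or at most 0.5. DESeq2 1.42.0, limma 3.58.1 (voom), edgeR's exact test, FPKM on the log2 scale with a pseudocount of 1 or 0.1, other filters and scalings, and leaving out each tumor were alternatives. In simulated data with 4-fold changes, the quasi-likelihood test called 165 of 194 changed genes and 10 others. The changed genes were drawn at random from those that passed the filter, whatever their level. The simulation therefore does not measure power for the 10 genes at their counts and fold changes. Ratios were taken per length on FPKM within each tumor and compared by exact two-sided permutation tests in scipy 1.17.1, with exact 95% intervals that cover counting error only. Named genes were the 10 genes, the T cell receptor chains, up to 8 genes of each list with an unadjusted p under 0.05, and the 8 genes most like *Cd3*, of which 1 is not reported here. *Zap70*, *Klre1*, *Cd209a*, *Clec4f*, *Cd5l* and examples of likeness were picked after their values were seen. The 10 genes and the lists were chosen with earlier results of these data known. All pairs of libraries differed beyond sampling noise, and 0 columns of values were left unused.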

Additional observations from a re-analysis of the deposited data

How the results depend on the processing

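The log2 fold change of the 10 genes kept its direction in all 139 alternative values. In 137 of these it also kept its side of the threshold, and *Cd8a* passed it with DESeq2 and with edgeR's exact test, so that 1 of the 10 was called by each, against 0 in edgeR's quasi-likelihood test, limma-voom and the other settings. Over all genes, DESeq2 called 43 lower and 9 higher, edgeR's exact test 35 and 5, and edgeR without the filter on low counts 2 lower, against 0 and 0 for the quasi-likelihood test, in which 607 genes were lower and 305 higher at an unadjusted p under 0.05. The number of the 10 lower at an unadjusted p under 0.05 was 6, and between 2 and 9 when single tumors were left out. FPKM with a pseudocount of 1 gave a median log2 fold change of -0.54, since the pseudocount is near the level of these genes. No paired analysis was possible because the genotypes share no replicate number.

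Several ratios changed direction. Leaving out single tumors gave log2 differences between -0.25 and 0.98 for *Cd8a* to *Cd4*, and, relative to *Cd3*, between -1.53 and -0.69 for *Pdcd1*, -0.88 and 0.13 for *Ctla4*, -0.37 and 0.09 for *Cd247*, -1.16 and -0.01 for *Cd4*, -0.59 and -0.0013 for *Cd8a*, -0.21 and 0.19 for *Cd8b1* and -0.20 and 0.21 for *Lck*. Set against *Cd3e* alone, *Cd247* was at 0.40 and *Cd8a* at 0.21, and set against *Ptprc*, *Cd8b1* was at -0.40 and *Lck* at -0.39. The cause was not tested. Depth limits these ratios, since *Cd3e*, *Pdcd1* and *Ctla4* had 2 to 4 reads in some Prmt3LKO tumors.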
